A study of Arabidopsis thaliana with 16 samples.

Results

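SWEET genes encode sugar transporters, and 5 of them were measured above background in the roots of dark-grown Arabidopsis thaliana seedlings, in 8 groups of 2 Affymetrix arrays each. The genes were those whose symbol in the probe set annotation begins with SWEET and whose single-gene probe set exceeded 4 on the log2 scale on at least 2 of the 16 arrays. The annotation held 15 such symbols, 6 of them passed, and the 6 were part of 13836 features (genes and unlisted probe sets) tested in all. One of the 6, SWEETIE (AT1G67140), shares only the first letters of its name: it encodes a large protein linked to trehalose metabolism and is no SWEET transporter. Its gene spans 16684 bases in the TAIR10.1 annotation, against 786 to 3163 bases for the 14 transporter genes with a SWEET symbol. It was kept because the rule takes it, and its values are given apart.

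All seedlings grew for 3 days in darkness at 22 °C, and their roots were cut from the hypocotyl for RNA. In the ethylene experiment, aux1 mutants (aux1-7, impaired in an auxin influx carrier) and wild-type Col-0 (Col) were flushed for 4 h with hydrocarbon-free air containing 10 ppm ethylene, or with hydrocarbon-free air alone (air). In the auxin experiment, ein2 mutants (ein2-5, impaired in a central component of ethylene signalling) and Col were sprayed with 1 µM indole-3-acetic acid (IAA, the main natural auxin) in 0.01% ethanol, or with 0.01% ethanol alone (mock), and kept for 4 h in the dark. The groups were thus aux1 ethylene, aux1 air, Col ethylene, Col air, ein2 IAA, ein2 mock, Col IAA and Col mock. Both arrays of a group are biological replicates by the series' design text; how many seedlings each RNA sample pooled was not given in the sources used here.

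SWEET proteins let sugars pass a membrane down their gradient, in either direction and without energy from a proton gradient. SWEET11 sits in the plasma membrane of phloem cells and releases sucrose for phloem loading. SWEET16 and SWEET17 sit in the membrane of the vacuole, where SWEET17 carries fructose in and out and is known from root vacuoles, and SWEET16 carries glucose, fructose and sucrose. SWEET2 is also a vacuolar transporter of roots, known to limit the loss of sugar to the soil.

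The deposited values were log2 expression values from GCRMA, a method that corrects Affymetrix probe signals for background and summarises them per probe set. Array medians lay between 5.87 and 6.004, and the 2 arrays of a group correlated at 0.993 to 0.998 across all probe sets. The precision of array values is limited by the number of arrays. Both treatments left their mark in known target genes. RTE1, a regulator of an ethylene receptor, was higher with ethylene by 2.74 ± 0.18 in aux1 and by 2.92 ± 0.18 in Col, and GH3.3, an auxin-conjugating enzyme gene, was higher with IAA by 5.31 ± 0.75 in ein2 and by 6.02 ± 0.75 in Col (log2 difference ± SE, n = 2 per group). GH3.3 differed widely between the 2 Col air arrays, at 9.44 and 6.04. LBD29, a further gene listed as a treatment check, averaged 10.54 with IAA and 5.96 in mock in ein2. In Col it averaged 10.41 with IAA and 4.40 in mock, and 3.70 with ethylene and 4.72 in air. Of 15 root marker loci only EXPA7, a cell-wall gene of root hairs, had a named probe set, with group means of 7.73 to 9.96. EXPA7 itself differed with ethylene by 0.84 ± 0.38 in aux1 and by 1.26 ± 0.38 in Col (adjusted p 0.262 and 0.0686, and 0.123 and 0.0243 with the replicate number as a block), and the part of root hair cells in the results below was not tested. Probe sets for AUX1 and EIN2 were not analysed here. The stomatal lineage genes FAMA and SPCH, the 2 of 11 shoot markers with a named probe set, had group means of 1.95 to 2.27. None of the 8 phloem or 5 xylem marker loci had a named probe set, so the cell types that carry these transcripts were not analysed here.

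The filter at 4 split the 14 transporter genes with a SWEET symbol into a class above it and a class below it, with no value between 3.34 and 5.22. SWEET2 (AT3G14770), SWEET3 (AT5G53190), SWEET11 (AT3G48740), SWEET16 (AT3G16690) and SWEET17 (AT4G15920) exceeded 4 on all 16 arrays, with a lowest value of 5.22. The other 9 exceeded 4 on no array, with a highest value of 3.34. They were SWEET1, SWEET4, SWEET6, SWEET7, SWEET8 (known from pollen), SWEET9 (the sucrose exporter of nectaries), SWEET10, SWEET13 and SWEET14. SWEET10 and SWEET13, which are direct neighbours in the genome, were both in this class. AtVEX1 (SWEET5, known from pollen) and SAG29 (SWEET15, known from senescing leaves) carry other symbols in the annotation and were also below 4 on every array, with highest values of 2.295 and 2.29. SWEET12, the close partner of SWEET11 in phloem loading, had no named probe set and was not analysed here. A value near 2 is at the background of these arrays, whose lower quartiles reached up to 2.55, and does not show that a gene was silent.

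**Figure D1:**
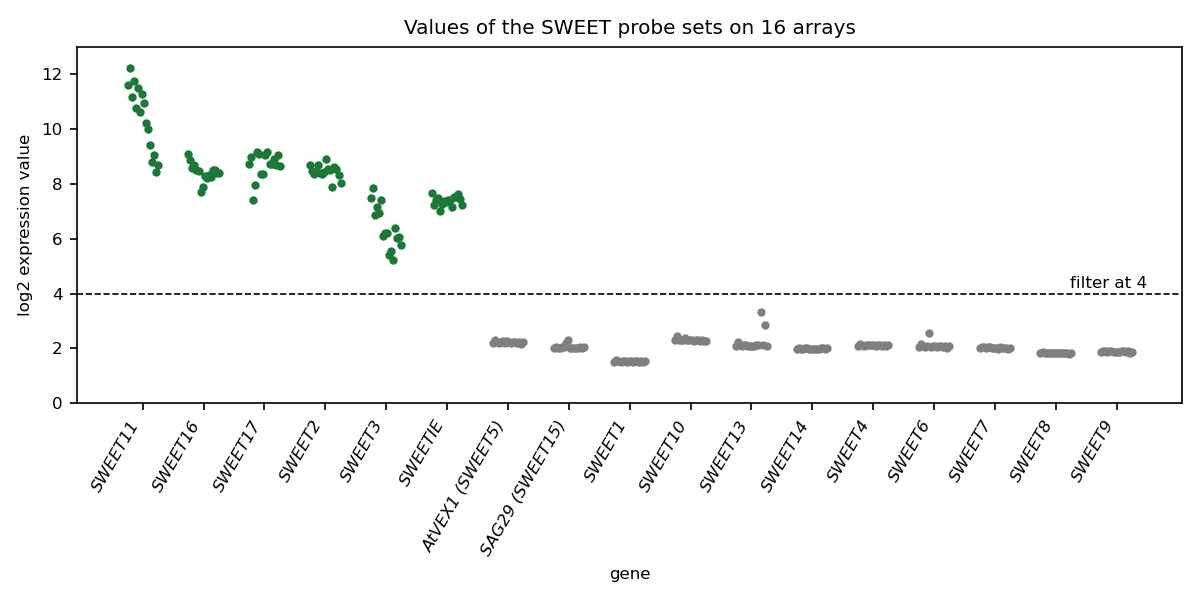
Log2 expression values (y axis) of every SWEET probe set (x axis) on the 16 arrays, one point per array, with the filter at 4 drawn as a dashed line. Green points are the 6 genes that passed, with no value under 5.22, and grey points are genes that did not, with no value over 3.34.

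The first question of the series was what ethylene does to root gene expression. Among the SWEET genes it lowered the vacuolar fructose transporter SWEET17 in both genotypes, though the call in aux1 was not firm. SWEET16 and SWEET3 passed the test only in aux1, SWEET3 not firmly, without a shown difference between genotypes. Each difference below is a difference of log2 means ± its standard error from limma, n = 2 arrays per group, and calls were made where the p adjusted over the 13836 features, by Benjamini and Hochberg's method, was under 0.05. In bulk root RNA, fewer cells that express a gene and less RNA per cell cannot be told apart. With 2 arrays a group, groups without overlap were common. In either direction, 43.1% of all features stood fully apart between ethylene and air in aux1, and 45.7% in Col.

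SWEET17 read 7.41 and 7.96 in Col ethylene roots, against 8.73 and 8.97 in Col air roots. Both ethylene arrays lay below both air arrays. The difference was -1.16 ± 0.18 (2.24-fold lower, adjusted p = 0.00175), and it stayed called under every setting and with any array left out, between -1.44 and -0.89. In aux1 roots SWEET17 read 8.38 and 8.38 with ethylene, against 9.18 and 9.09 in air, again without overlap. The difference of -0.76 ± 0.18 (1.69-fold lower) was called at an adjusted p of 0.0264, but not without any 1 of the 4 aux1 arrays (adjusted p 0.0931 to 0.109), nor with no filter (0.0527) or when the ethylene experiment was fitted alone (0.0995). The ethylene effect was thus 0.41 ± 0.25 smaller in size in aux1 than in Col, and this difference was not called (adjusted p = 0.921, 95% interval -0.15 to 0.97).

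SWEET16, the other vacuolar transporter of this pair, read 7.71 and 7.89 in aux1 ethylene roots, against 8.51 and 8.47 in aux1 air roots. The groups were apart by more than the gap between their arrays. SWEET16 fell by 0.69 ± 0.11 on the log2 scale (1.62-fold lower, adjusted p = 0.00201), and the call held under every setting and with any array left out. In Col, SWEET16 read 8.57 and 8.69 with ethylene and 9.10 and 8.88 in air. The difference there was -0.36 ± 0.11, with an adjusted p of 0.062, and it passed after each array was centred on its median (0.0400) and with no filter (0.0371). The ethylene effect in aux1 minus that in Col was -0.33 ± 0.15 (adjusted p = 0.865, 95% interval -0.66 to -0.0047, not adjusted for the number of tests).

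SWEET3, another member of the family, read 6.09 and 6.19 in aux1 ethylene roots, against 6.94 and 7.41 in aux1 air roots. Ethylene values were below all air values, with a difference of -1.04 ± 0.27 (2.05-fold lower) that was called at an adjusted p of 0.0375. It was not called with no filter (0.0869), nor without aux1 air replicate 2 or without either aux1 ethylene array (0.116 to 0.233). In Col, SWEET3 read 6.86 and 7.17 with ethylene and 7.48 and 7.85 in air. The difference of -0.65 ± 0.27 was not called (adjusted p = 0.184), but was called with the replicate number as a block (0.0108). The 2 genotypes' effects differed by -0.39 ± 0.38 (adjusted p = 0.958).

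SWEET11 and SWEET2 did not pass in either genotype. The phloem sucrose exporter SWEET11 read 10.62 and 11.30 in aux1 ethylene roots, against 10.77 and 11.51 in aux1 air roots, and 11.18 and 11.76 in Col ethylene roots, against 11.62 and 12.25 in Col air roots. The groups overlapped within each genotype, with differences of -0.18 ± 0.35 in aux1 and -0.46 ± 0.35 in Col. SWEET2 stood between 8.37 and 8.70 on all 8 arrays, and its differences were -0.14 ± 0.20 in aux1 and -0.18 ± 0.20 in Col. The intervals of SWEET2 (-0.58 to 0.29 and -0.62 to 0.25) left room for changes of either sign. SWEETIE differed by 0.199 ± 0.16 in aux1 and by 0.01 ± 0.16 in Col, where the sign turned after median centring or quantile normalization.

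In all, 3 of the 6 genes were called for ethylene in aux1 and 1 of 6 in Col, where 7.10% and 8.81% of all features were called. All 5 transporters had a negative difference in both genotypes, with a median of -0.69 in aux1 and -0.46 in Col, against -0.01 and 0.03 over all features. With the replicate block 2 of the 6 genes were called in Col, beside 12.9% of all features. For the difference between the genotypes 0 of 6 were called with limma, where 0.145% of all features were, and of the 6 only SWEET16 had an unadjusted p under 0.05.

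**Figure D2:**
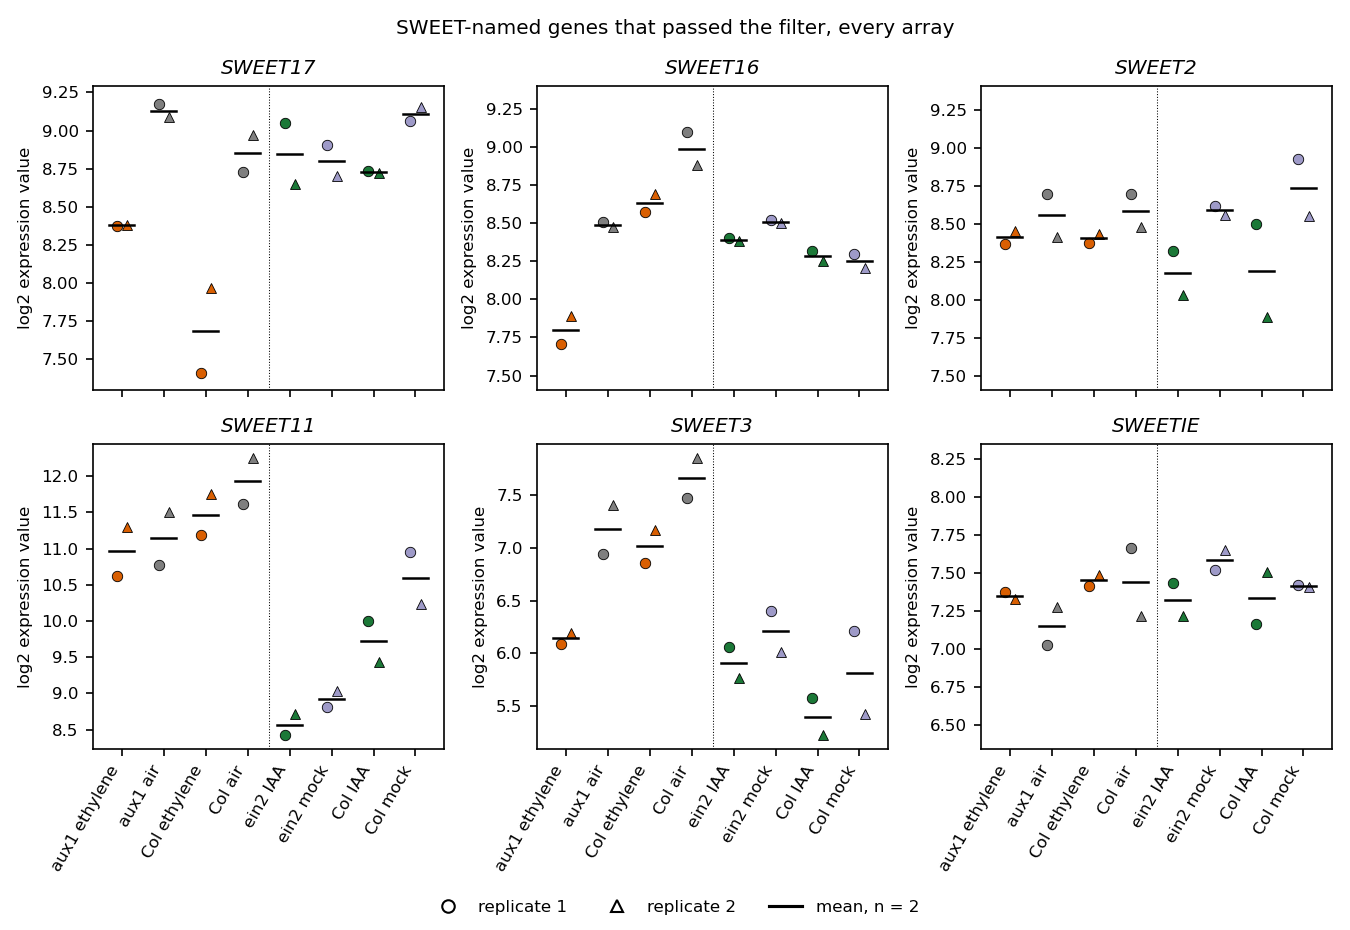
Log2 expression values (y axis, a span of at least 2 in every panel) of the 6 SWEET-named genes on every array, by group (x axis, ethylene experiment left and auxin experiment right of the dotted line). Circles are replicate 1, triangles replicate 2 and bars the mean of 2 arrays. SWEET17 is lowest in Col ethylene, SWEET16 in aux1 ethylene and SWEET11 in the ein2 groups, while SWEETIE stays between 7.03 and 7.67.

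The next question was how the aux1 mutation itself shifted these genes. SWEET16 was the one gene called, and only in ethylene: it read 7.71 and 7.89 in aux1 ethylene roots, against 8.57 and 8.69 in Col ethylene roots. The 2 groups did not overlap, and the difference of -0.83 ± 0.11 (1.78-fold lower in aux1) had an adjusted p of 0.00143. With any 1 array left out it stayed called, but not when the ethylene experiment was fitted alone (0.0599). Of all features, 37.1% stood fully apart between aux1 and Col in ethylene and 32.3% in air, in either direction. In air SWEET16 was also lower in both aux1 arrays than in both Col arrays, at -0.499 ± 0.11 (adjusted p = 0.0737). That difference passed with no filter (0.0394) and without Col air replicate 2 (0.0412).

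SWEET17 differed the other way in ethylene, with 8.38 and 8.38 in aux1 against 7.41 and 7.96 in Col. The difference of 0.69 ± 0.18 had an adjusted p of 0.0931, which was 0.0492 with the replicate block and 0.0246 without Col ethylene replicate 2. In ethylene, SWEET3 was lower in aux1 by -0.87 ± 0.27 (adjusted p = 0.164, and 0.00641 with the replicate block), with 6.09 and 6.19 against 6.86 and 7.17 in Col. In air SWEET17 (0.28 ± 0.18), SWEET3 (-0.49 ± 0.27), SWEET11 (-0.79 ± 0.35), SWEET2 (-0.03 ± 0.20) and SWEETIE (-0.29 ± 0.16) were not called. In ethylene SWEET11 (-0.51 ± 0.35), SWEET2 (0.01 ± 0.20) and SWEETIE (-0.0995 ± 0.16) were not called either. The counts were 0 of 6 in air, where limma called 0.679% of all features, and 1 of 6 in ethylene, where it called 1.89%. SWEET11 and SWEET16 had an unadjusted p under 0.05 in air. In ethylene the count was 3 of 6 with the replicate block, beside 3.89% of all features.

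The auxin experiment asked the same of IAA, and no SWEET gene was called in either genotype. SWEET11 read 8.43 and 8.71 in ein2 IAA roots, against 8.81 and 9.04 in ein2 mock roots, and 10.01 and 9.43 in Col IAA roots, against 10.96 and 10.24 in Col mock roots. Treated arrays lay below mock arrays in both genotypes, by -0.36 ± 0.35 in ein2 (adjusted p = 0.768) and by -0.88 ± 0.35 in Col (0.182). In either direction, 47.3% of all features stood fully apart between IAA and mock in ein2, and 58.7% in Col. With the replicate block the Col difference was called (0.0335).

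SWEET2 read 8.32 and 8.04 in ein2 IAA roots, against 8.62 and 8.56 in ein2 mock roots, and 8.50 and 7.89 in Col IAA roots, against 8.93 and 8.55 in Col mock roots. IAA values were again the lower ones in each genotype, by -0.41 ± 0.20 in ein2 (adjusted p = 0.379) and -0.55 ± 0.20 in Col (0.136). The Col difference was called with the replicate block (0.0365) and without Col IAA replicate 1 (0.0448), where it was -0.85. Without Col IAA replicate 2 it was -0.24.

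Neither gene of the vacuolar pair was called. SWEET17 differed by 0.05 ± 0.18 in ein2 and by -0.38 ± 0.18 in Col, where both IAA arrays (8.73 and 8.72) were below both mock arrays (9.06 and 9.16; adjusted p = 0.26). SWEET16 differed by -0.12 ± 0.11 in ein2 and by 0.04 ± 0.11 in Col, with an interval in Col of -0.20 to 0.27. SWEET3 differed by -0.30 ± 0.27 in ein2 and by -0.42 ± 0.27 in Col, and SWEETIE by -0.26 ± 0.16 and -0.08 ± 0.16. The limma counts of 0 of 6 stood beside 3.25% of all features called in ein2 and 6.93% in Col. An unadjusted p under 0.05 was reached by 0 of the 6 genes in ein2 and by SWEET2 and SWEET11 in Col. With the replicate block 2 of 6 were called in Col, beside 11.3% of all features. Of the 5 transporters 4 had a negative difference with IAA in each genotype, with a median of -0.30 in ein2 and -0.42 in Col, against -0.01 and 0.00 over all features.

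For the difference in IAA effect between ein2 and Col, 0 of 6 genes were called, as limma called 0% of all features, with 622 at an unadjusted p under 0.05. None of the 6 had an unadjusted p under 0.05, and with the replicate block 0.0361% of all features and 0 of the 6 genes were called. The difference was 0.52 ± 0.50 for SWEET11, with an interval of -0.58 to 1.62.

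The ethylene effect in Col was also set against the IAA effect in Col, which come from different arrays. The difference was -0.78 ± 0.25 for SWEET17 (adjusted p = 0.132, and 0.0324 without Col ethylene replicate 2) and -0.40 ± 0.15 for SWEET16 (0.207). For SWEET11 it was 0.42 ± 0.50 and for SWEET2 0.37 ± 0.28. Of the 6 genes 0 were called, beside 4.37% of all features, and SWEET16 and SWEET17 had an unadjusted p under 0.05.

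**Figure D3:**
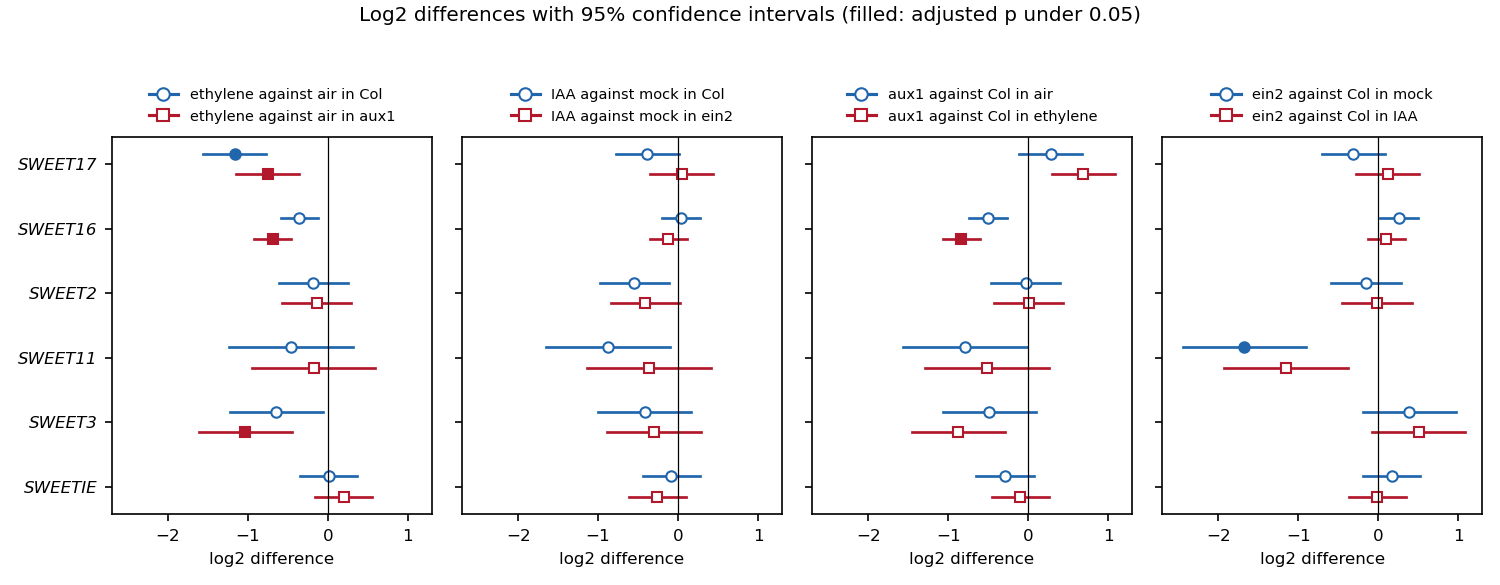
Log2 differences (x axis) of the 6 genes (rows) in the 8 comparisons of 2 groups, with 95% confidence intervals from limma. Filled symbols mark an adjusted p under 0.05: SWEET17 with ethylene in both genotypes, SWEET16 and SWEET3 with ethylene in aux1, SWEET16 for aux1 against Col in ethylene, and SWEET11 for ein2 against Col in mock.

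Among the 8 tested comparisons of 2 groups, the widest difference of a SWEET gene was that of SWEET11 between ein2 and Col. SWEET11 read 8.81 and 9.04 in ein2 mock roots, against 10.96 and 10.24 in Col mock roots. All ein2 values were lower, but in mock 26.6% of all features stood fully below Col in ein2, and 33.4% fully above. The SWEET11 difference of -1.67 ± 0.35 (3.18-fold lower) had an adjusted p of 0.0104. It was not called without Col mock replicate 1 (where it was -1.31) or without ein2 mock replicate 1 (adjusted p 0.0766 and 0.0994 over these 2), and held under every other setting.

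With IAA in both genotypes, SWEET11 read 8.43 and 8.71 in ein2, against 10.01 and 9.43 in Col. Between these groups 55.7% of all features stood fully apart, in either direction. The difference of -1.15 ± 0.35 was not called (adjusted p = 0.0815), but was called with the replicate block (0.00947) and when the auxin experiment was fitted alone (0.047). SWEET3 differed the opposite way, with 6.05 and 5.76 in ein2 IAA against 5.57 and 5.22 in Col IAA. That difference of 0.51 ± 0.27 had an adjusted p of 0.333, and of 0.0386 with the replicate block. In mock, SWEET3 overlapped between the genotypes (0.39 ± 0.27).

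SWEET16 was higher in both ein2 mock arrays (8.52 and 8.50) than in the Col mock arrays (8.30 and 8.20), by 0.26 ± 0.11, which was not called (adjusted p = 0.149). SWEET17 was lower in ein2 mock (8.91 and 8.70, against 9.06 and 9.16) by -0.31 ± 0.18, and SWEET2 by -0.15 ± 0.20, neither of them called. SWEETIE differed by 0.17 ± 0.16. With IAA, SWEET16 (0.10 ± 0.11), SWEET17 (0.12 ± 0.18), SWEET2 (-0.01 ± 0.20) and SWEETIE (-0.01 ± 0.16) were not called. The counts were 1 of 6 in mock, where 11.1% of all features were called, and 0 of 6 with IAA, where limma called 7.21%. With IAA only SWEET11 had an unadjusted p under 0.05, and with the replicate block 2 of 6 were called, beside 10.8% of all features.

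Over the 8 groups the genes ranked in different orders. SWEET11 was highest in Col air (11.93 ± 0.44), then Col ethylene (11.47 ± 0.41), aux1 air (11.14 ± 0.52), aux1 ethylene (10.96 ± 0.48), Col mock (10.598 ± 0.51), Col IAA (9.72 ± 0.40), ein2 mock (8.93 ± 0.16) and ein2 IAA (8.57 ± 0.198; mean ± SD, n = 2). Its first 5 groups overlapped with their neighbours array by array, and the last 3 steps did not.

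SWEET3 ran from 7.66 ± 0.27 in Col air to 5.397 ± 0.24 in Col IAA. Neighbouring groups overlapped at 4 of its 7 steps. SWEET17 had its top mean in aux1 air (9.13 ± 0.06) and its lowest in Col ethylene (7.68 ± 0.39), and Col air, ein2 IAA, ein2 mock and Col IAA overlapped in turn, at 8.85 to 8.73. SWEET16 was highest in Col air (8.99 ± 0.15) and lowest in aux1 ethylene (7.80 ± 0.13), with overlap at 2 of 7 steps. SWEET2 overlapped at all 7 steps, between 8.74 ± 0.27 in Col mock and 8.18 ± 0.20 in ein2 IAA.

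Among the 6 genes, untreated Col roots of the 2 experiments differed most in mean for SWEET3, SWEET11 and SWEET16 (air minus mock 1.85, 1.34 and 0.74). SWEET3 averaged 7.66 in air and 5.81 in mock, SWEET11 11.93 and 10.598, and SWEET16 8.99 and 8.25. The means of SWEET17 (8.85 and 9.11), SWEET2 (8.59 and 8.74) and SWEETIE (7.44 and 7.42) were closer. The SWEET17 arrays still did not overlap, at 8.73 and 8.97 in air and 9.06 and 9.16 in mock. How many of all features stood apart between these 2 groups was not counted. Gas flow and spraying, and any other difference between the experiments, cannot be told apart here, so no test was made.

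The wide spread of SWEET11 between arrays followed the replicate number in the ethylene experiment. In all 4 groups of that experiment its array numbered 2 was above that numbered 1, by 0.57 to 0.73, and for SWEET3 the same gap was 0.10 to 0.47. In the auxin experiment the gap of SWEET3, number 2 minus number 1, was -0.79 to -0.30 over the 4 groups. There the gap was also negative in all 4 groups for SWEET2 (-0.61 to -0.05) and SWEET16 (-0.09 to -0.02). For SWEET11 it was negative in both Col groups and positive in both ein2 groups. Taken within a number, the ethylene difference of SWEET11 in Col was -0.44 and -0.49, and its ein2 difference in mock was -2.14 and -1.20. For SWEET17 the within-number ethylene differences in Col were -1.32 and -1.01, which the main fit did not use as pairs. How many of all features kept the same direction by replicate number in all 4 groups was not counted.

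**Figure D4:**
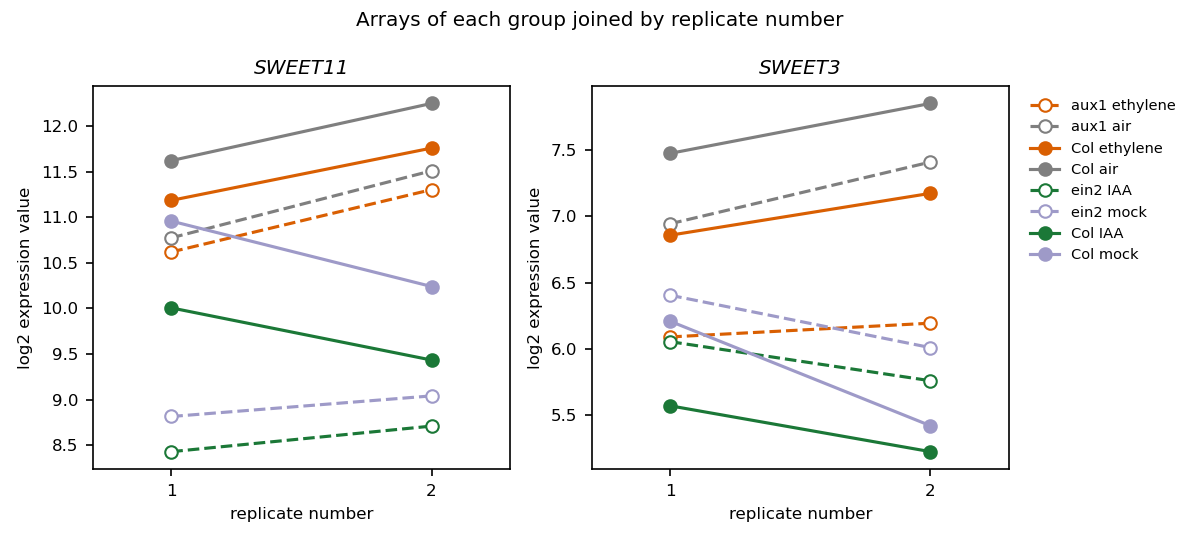
Log2 expression values (y axis) of SWEET11 and SWEET3 on the 2 arrays of each group, joined by replicate number (x axis), with dashed lines for aux1 and ein2 and solid lines for Col. In the ethylene experiment the array numbered 2 is the higher one in all 4 groups for both genes.

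Genes with a pattern like that of the 2 most variable SWEET genes were looked up among 924 other named genes whose group means had an SD of at least 0.5. For SWEET11 the highest Pearson correlations over the 8 group means were those of AT2G40420 (0.984), AT2G25510 (0.983), AT1G44160 (0.979), AT3G07720 (0.976) and AT5G25280 (0.976), and 71 of the 924 exceeded 0.9. For SWEET3 they were those of AT3G48940 (0.9395), AT2G36430 (0.916), AT5G23750 (0.906), AT4G22640 (0.895) and AT2G38790 (0.885), and 3 of the 924 exceeded 0.9. These are descriptions over 8 means of 2 arrays, and the genes share the arrays and their normalization. The 8 means also join 2 experiments. All SWEET11 means of the ethylene experiment (10.96 to 11.93) lay above those of the auxin experiment (8.57 to 10.598). A like response to treatment or genotype and a shared difference between the experiments therefore cannot be told apart in these correlations.

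Other genes that move or split sugars were taken from 6 lists of 80 loci: SUC sucrose and STP hexose transporters, transporters of vacuole, plastid, polyols and inositol, invertases, sucrose synthases, and hexokinases with fructokinases. A named probe set existed for 20 of them, and 11 passed the filter: 5 transporters, 2 invertases and 4 kinases. No SUC gene and no sucrose synthase gene had a named probe set, and the 4 STP genes with one stayed below the filter. SFP1 (AT5G27350), a sugar porter gene of the ERD6-like group, fell with ethylene in Col. It read 10.52 and 10.90 in Col ethylene roots against 11.17 and 11.27 in Col air roots, a difference of -0.52 ± 0.13 (adjusted p = 0.0287). It also fell with IAA in Col, with 10.75 and 10.80 against 11.31 and 11.29 in mock, by -0.53 ± 0.13 (0.0316).

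Neither call of SFP1 was firm. The ethylene call was lost without Col air replicate 1 or 2 or Col ethylene replicate 1 (adjusted p 0.0635 to 0.23; -0.33 at the smallest) and in the ethylene experiment alone (0.149), and the IAA call without any 1 of the 4 Col arrays of that comparison (0.114 to 0.183). In Col the fructokinase gene AT3G59480 read 6.61 and 6.71 with ethylene against 7.37 and 7.12 in air. That difference of -0.59 was not called. The gene fell with ethylene in aux1, with 6.38 and 5.89 against 7.08 and 6.98 in air, by -0.89 ± 0.18 (0.0125). Leaving out aux1 ethylene replicate 2 or 1 of the aux1 air arrays ended that call (0.0564 to 0.106). Of the 11 tested sugar genes limma thus called 1 for ethylene in aux1, 1 for ethylene in Col, 0 for IAA in ein2 and 1 for IAA in Col, each of them lower, where 3, 3, 2 and 3 had an unadjusted p under 0.05. In the same order limma called 7.10%, 8.81%, 3.25% and 6.93% of all features, so that 1 of 11 was near the share over all features. Their median difference was -0.13 with ethylene in aux1 and 0.02 in Col, and 0.00 with IAA in ein2 and -0.02 in Col. No sugar gene of the lists was called in the 4 genotype comparisons, in either interaction or in the comparison of the ethylene with the IAA effect, where 0 to 2 of the 11 had an unadjusted p under 0.05.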

How the data were processed

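The deposited table held 1 log2 expression value per probe set and array, for 22810 probe sets; the authors made these values with GCRMA, per the submitters' processing notes, whose version and settings are not given in the sources used here. That they are log2 follows from their range, 1.24 to 15.40. No value was renormalized. Annotation named 1 locus for 13436 probe sets, several genes for 503, none with a locus code for 77 and left 8730 unlisted. The 64 controls, the 503 and the 77 were left out; of 144 loci with several probe sets the one with the highest mean was kept; unlisted probe sets were tested unnamed. Features above 4 on at least 2 arrays were tested.

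Group means were modelled together on the 16 arrays with limma 3.58.1 (R 4.3.3, 8 residual and 3.39 prior degrees of freedom). In all, 11 contrasts were tested, two-sided. The fit was tried on simulated data with independent noise on each array, so that trial does not cover the correlations by replicate number given next. Replicate numbers were checked: deviations from group means correlated between groups at 0.310 to 0.415 in the ethylene and 0.104 to 0.401 in the auxin experiment, so a fit with the number as a block is given where it changes a call. Alternatives were 2 further normalizations, no filter, named loci only, an intensity trend, 1 experiment alone, the block, and each array left out. The members and lists were chosen with earlier results of these data known. The named genes were all members, called list genes and, for likeness, the 5 best correlated.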

Additional observations from a re-analysis of the deposited data

How the results depend on the processing

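The call of SWEET17 for ethylene in Col and that of SWEET16 for ethylene in aux1 held under all 7 other settings and with each array left out. A total of 526 log2 differences were followed under these settings. They were those of all tested SWEET-named genes, and those of listed genes only for treatment comparisons that called them in the main fit. The listed genes, which include the treatment checks, could thus lose a call but not gain one. Of the 526, 505 kept their direction and their side of the threshold, and 8 lost and 11 gained a call. Among the lost calls were those of LBD29 for ethylene in Col (limma adjusted p 0.0519 to 0.135). The other 2 changed sign, both of SWEETIE for ethylene in Col (-0.0366 after median centring and -0.0205 after quantile normalization). The count of SWEET genes called for ethylene in Col was 2 instead of 1 after median centring, with no filter and with the replicate block, and for ethylene in aux1 it was 1 instead of 3 with no filter. With the replicate block it was 2 instead of 0 for IAA in Col, 3 instead of 1 for aux1 against Col in ethylene, and 2 instead of 0 for ein2 against Col with IAA. It was 1 instead of 0 for aux1 against Col in air with no filter. With 1 experiment alone it was 0 instead of 1 for aux1 against Col in ethylene and 1 instead of 0 for ein2 against Col with IAA. The block changed no other call of these genes.

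With 1 array left out the count ran from 1 to 3 for ethylene in aux1, from 1 to 2 for aux1 against Col in ethylene, and from 0 to 1 for IAA in Col, for aux1 against Col in air, for ein2 against Col in mock and for the ethylene minus the IAA effect. It stayed at 1 for ethylene in Col and at 0 in the other 4 comparisons. Of 1216 differences 38 changed sign, among them SWEETIE (-0.21 to 0.24) for ethylene in Col, and SWEET11 (-0.55 to 0.19) and SWEET2 (-0.29 to 0.0001) for ethylene in aux1. For the difference between genotypes these were SWEET11 (-0.0852 to 0.65), SWEET2 (-0.10 to 0.18) and SWEETIE (-0.0371 to 0.41) with ethylene, and SWEET3 (-0.28 to 0.51) and SWEET2 (-0.17 to 0.44) with IAA. With IAA they were SWEET16 (-0.0099 to 0.0841) and SWEETIE (-0.25 to 0.0899) in Col and SWEET17 (-0.16 to 0.25) in ein2. For aux1 against Col they were SWEET2 in air (-0.17 to 0.11) and in ethylene (-0.0351 to 0.0491). For ein2 against Col they were SWEET3 (-0.0013 to 0.79) and SWEET2 (-0.34 to 0.0378) in mock, and SWEET17 (-0.0809 to 0.32), SWEET2 (-0.32 to 0.29) and SWEETIE (-0.18 to 0.16) with IAA. For the ethylene minus the IAA effect they were SWEET3 (-0.63 to 0.16) and SWEETIE (-0.13 to 0.32). None of these was a call.

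Over all features, 675, 497, 3, 51 and 91 instead of 1219, 982, 20, 94 and 262 were called in the ethylene experiment alone, for ethylene in Col, in aux1, their difference, and aux1 against Col in air and in ethylene. With the block they were 1483 for ethylene in aux1, 1566 instead of 959 for IAA in Col, 733 instead of 449 for IAA in ein2, 171 and 538 for aux1 against Col in air and in ethylene, 2350 instead of 1534 for ein2 against Col in mock, and 994 instead of 604 for the ethylene minus the IAA effect. For the difference in IAA effect between ein2 and Col, 5 with the block and 3 with no filter were called instead of 0. Among named loci alone, where only 7642 features were tested, the 11 counts ran from 2 to 746. Without 1 array they ran from 720 to 1266 for ethylene in Col, from 513 to 1043 in aux1, from 405 to 1016 for IAA in Col, from 206 to 477 in ein2, from 64 to 192 and from 107 to 347 for aux1 against Col in air and in ethylene, and from 779 to 1637 and from 513 to 1039 for ein2 against Col in mock and with IAA. For the genotype differences in effect they ran from 15 to 87 with ethylene and from 0 to 6 with IAA, and for the ethylene minus the IAA effect from 363 to 597. The causes of the other shifts were not tested. With 2 arrays a group, signal over background limited the 9 SWEET genes under the filter. They entered only the fit with no filter, where limma called 0 of their 99 differences, 0 had an unadjusted p under 0.05, and the differences ran from -0.28 to 0.64.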

Other observations

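SWEET13, which is known to carry sucrose and is related to SWEET11, was the SWEET gene below the filter that varied most. It read 3.34 on ein2 mock replicate 1 and 2.84 on ein2 IAA replicate 1, and between 2.08 and 2.23 on the other 14 arrays, which include both second ein2 arrays. The highest value of the other 8 transporters below the filter was 2.55, for SWEET6 on aux1 air replicate 2. Both SWEET13 values are under 4. In the fit with no filter its difference between ein2 and Col in mock was 0.64 ± 0.34 (limma adjusted p = 0.381), and no cause was tested.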
